A study of Homo sapiens with 24 samples.

Results

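The genes described here are 10 regulators of entry into and passage through mitosis: the kinases CDK1, PLK1, PLK4 and AURKA, the phosphatases CDC25A, CDC25B and CDC25C, the anaphase activator CDC20, and the transcription factors FOXM1 and MYBL2. They were chosen by gene symbol, with earlier results of these data known. Each had 1 row among the 48162 genes of the count table. RNA-seq was made of PPC1, a prostate cancer cell line, in 4 conditions with 6 libraries each, 24 libraries in all. Parental cells were not irradiated. PGCC, polyploid giant cancer cells, were made from the same line by 8 Gy of radiation on day 2 of the culture and were held back on a strainer of 20 microns at harvest on day 5. Each population was studied without LCL521 and with LCL521, a pro-drug inhibitor of the acid ceramidase ASAH1, at 5 µM for 5 h before harvest. Irradiation and retention by size were applied together, so their parts in any difference between PGCC and parental cells cannot be told apart. All libraries come from 1 cell line, for which the labels name no transgene or deletion, and the series' design text gives 6 repeats of the experiment, each with its conditions harvested side by side.

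Total counts lay between 14835246 and 19906601 per library, so that 3 counts, the limit taken for a count of 0, stood for 0.151 to 0.202 CPM (counts scaled for the depth of the library), for counting error only. In a principal component analysis the first component (55.9% of the variance) separated PGCC from parental cells. The second (16.5%) separated replicates 4 and 5 of every condition from replicates 1, 2, 3 and 6, and results that rest on those libraries are given with and without them. Of the markers that could test the label of prostate origin, KLK3 had 0 counts in all 24 libraries, and TMPRSS2 had at most 2 counts in any library. Of the epithelial markers, KRT18 was at 144 to 268 CPM and KRT8 at 50.5 to 87.1 CPM in parental cells and 139 to 222 CPM in PGCC, with and without LCL521, while CDH1 was at 1.06 to 6.49 CPM and EPCAM at 0.851 CPM or less. The mesenchymal marker VIM was at 352 to 597 CPM.

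CDK1 bound to a B-type cyclin drives a cell into mitosis. The kinases WEE1 and PKMYT1 hold it inactive by phosphorylation, and the CDC25 phosphatases remove those phosphates. PLK1 and AURKA push this switch forward and then build the spindle, PLK4 starts centriole duplication, and CDC20 brings the anaphase-promoting complex to its substrates so that sister chromatids can part. FOXM1 and MYBL2 (B-MYB) act with the MuvB complex to transcribe many late cell cycle genes, several of these regulators among them. Messenger RNA of most of these genes is low outside the late part of the cycle, and polyploid cells arise when the genome is copied without a completed division.

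Because MuvB complexes bind a short element called the CHR, often beside CCAAT boxes bound by NF-Y, the start regions of the genes were searched for these letters. RefSeq windows (GRCh38.p14) covering the 250 bases before each annotated start were matched for 8 of the 10 genes, in 17 windows. AURKA and FOXM1 were not matched. All motifs were searched on both strands. The CHR was searched as TTTGAA and, in its second form, as TTCGAA. The NF-Y box was searched as CCAAT, which reads ATTGG on the opposite strand. For E2F the letters were TTCGCGC, and also the related form TTGGCGC, and finally the form TTCCCGC. A reversed NF-Y box and an E2F match can share letters, but did not do so in these genes. A CHR match was found for CDK1, CDC20, CDC25B, CDC25C and PLK1, 5 of 8 genes, against 14.3% of all 35116 windows. CCAAT was found for 7 of 8 genes, against 32.0% of all windows, and an E2F match for 5 of 8, against 9.32%. Several genes have more than 1 window, so the shares per gene and per window are not on the same footing. A match describes letters and is not evidence of a bound factor.

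The stretches below show the CHR of the 5 genes that had one. For CDC20, PLK1 and CDK1 the printed letters also hold a CCAAT box. In CDC25B and CDC25C a box lies outside the printed letters, as ATTGG at 73 and 85 bases before the start. Their CHR is at 38 and 30 bases. CDC25A is printed for contrast, with no CHR match and 2 E2F matches that overlap on opposite strands. Each is printed on the gene's strand, with motif letters in capitals: CDC20 at chr1:43358871-43358940 (+), PLK1 at chr16:23678799-23678873 (+), CDK1 at chr10:60778396-60778425 (+), CDC25C at chr5:138331820-138331849 (-), CDC25B at chr20:3796258-3796287 (+) and CDC25A at chr3:48188448-48188537 (-).
CDC20: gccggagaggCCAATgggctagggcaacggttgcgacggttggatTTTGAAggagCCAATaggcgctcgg
PLK1: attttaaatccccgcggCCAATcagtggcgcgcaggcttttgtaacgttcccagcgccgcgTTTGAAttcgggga
CDK1: tctgATTGGctgcTTTGAAagtctacgggc
CDC25C: tgggctggcggaaggTTTGAAtggtcaacg
CDC25B: ggctgctgttatttTTCGAAtatataagga
CDC25A: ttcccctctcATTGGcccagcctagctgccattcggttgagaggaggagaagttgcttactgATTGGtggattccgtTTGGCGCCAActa

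The first question was how PGCC differ from the parental cells they came from. In PGCC, 9 of the 10 genes were higher and none was lower (edgeR's quasi-likelihood test, adjusted p under 0.05), where 47.4% of the 13812 genes tested were called, 23.1% higher and 24.3% lower. The median log2 fold change of the 10 genes was 2.08, against -0.03 over all genes tested. Of the 10 genes, 8 had every PGCC library above every parental library, as did 13.9% of all genes tested. All 10 were higher in PGCC in 6 of 6 pairs of the same replicate number, CDC25A by 0.09 to 2.54 in log2. The share of all genes higher in 6 of 6 pairs was not computed. CDC25A was the gene not called, and CDC25B changed least of those called. RNA of bulk samples is measured as a share of each library, so more or fewer cells in a phase and more or less RNA per cell cannot be told apart, and nothing here is a level per cell. Among markers of other cell types, the summed level of 5 fibroblast markers was 49.8 to 133 CPM in parental cells and 79.6 to 206 CPM in PGCC. Most of it was COL1A2. COL1A1 was at 5.53 to 13.1 CPM and 5.00 to 8.17 CPM, and DCN stayed at or under 0.351 CPM in every library. The 4 leukocyte markers summed to 0.464 to 2.97 CPM and 2.84 to 4.43 CPM, most of it PTPRC, with CD3E and CD68 at 0 in both. The 2 endothelial markers found summed to 0 to 1.34 CPM and 0.363 to 1.01 CPM. The part of these markers in the results was not tested.

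**Figure D1:**
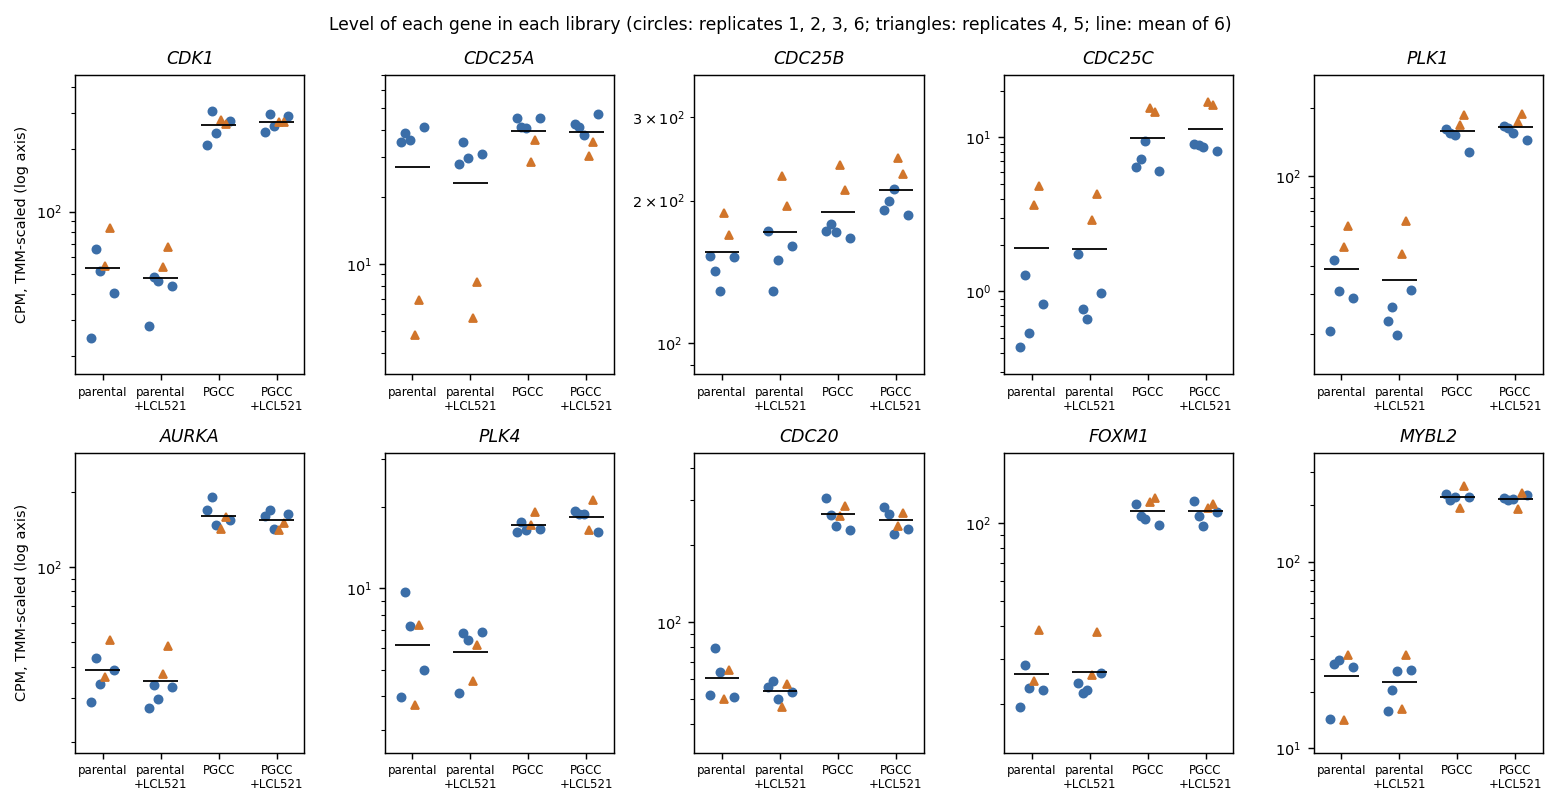
Level of each of the 10 genes in CPM, scaled by TMM, on a log axis in each of the 24 libraries, with circles for replicates 1, 2, 3 and 6, triangles for replicates 4 and 5, and a line at the mean of 6. For 8 genes every PGCC library lies above every parental library, CDC25A of replicates 4 and 5 falls to 4.81 and 6.93 CPM in parental cells, and the points with LCL521 overlap those without it for every gene.

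CDK1 (ENSG00000170312; hg19 chromosome 10, 62538089 to 62554610, plus strand), the kinase that triggers mitosis, had a lowest, median and highest level of 24.5, 53.1 and 83.1 CPM in the 6 parental libraries and 210.4, 269.6 and 307 CPM in the 6 PGCC libraries. The ranges did not overlap. Its log2 fold change was 2.30 ± 0.23 (SE), or 4.94-fold with a 95% interval of 3.52 to 6.94 (edgeR, adjusted p = 2.6e-06). The paired log2 difference by replicate was 2.39 ± 0.49 (SD, n = 6), and it ranged from 1.67 to 3.10.

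The 3 phosphatases that activate CDK1 did not move alike. CDC25C (ENSG00000158402; chromosome 5, 137620954 to 137674044, minus strand) was the least abundant of the 10 genes in parental cells, at 0.435, 1.05 and 4.83 CPM (lowest, median and highest; 8 to 83 counts), and reached 6.06, 8.39 and 15.4 CPM in PGCC (109 to 308 counts). Every PGCC library was above every parental one, by 5.09-fold in the fit (95% interval 2.36 to 11.0, adjusted p = 0.0020). CDC25C overlaps FAM53C on the opposite strand, which holds 15428 counts over the 24 libraries against 2660 for CDC25C, and the use of strand in counting is not given in the sources used here.

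CDC25B (ENSG00000101224; chromosome 20, 3767578 to 3786762, plus strand) was the most abundant of the 10 per kilobase of gene length in parental cells and rose least. Its levels were 129, 152 and 188 CPM in parental cells and 166, 175 and 238 CPM in PGCC, ranges that overlap. The log2 fold change was 0.29 ± 0.11 (SE), or 1.22-fold (95% interval 1.04 to 1.44, adjusted p = 0.040). This call was lost when any 1 of replicates 1, 2, 3, 5 and 6 was left out (highest adjusted p 0.097), in the fit of all 24 libraries (adjusted p = 0.052) and without a filter on low counts (adjusted p = 0.074).

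CDC25A (ENSG00000164045; chromosome 3, 48198636 to 48229892, minus strand), which also acts at entry into S phase, differed by 0.55 ± 0.42 (SE) in log2 between PGCC and parental cells. That is 1.47-fold with a 95% interval of 0.785 to 2.75 (adjusted p = 0.30), which holds both lower and higher levels in PGCC. The width comes with replicates 4 and 5, which are described next.

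In parental cells CDC25A was at 35.0, 38.7, 36.1 and 40.9 CPM in replicates 1, 2, 3 and 6, and at 4.81 and 6.93 CPM in replicates 4 and 5, a mean 6.42-fold lower. With LCL521 the parental libraries of replicates 4 and 5 were at 5.75 and 8.27 CPM, against 28.0 to 35.1 CPM in the others. In PGCC the gap was narrow, with 28.6 and 35.7 CPM against 40.8 to 45.1 CPM, and in PGCC with LCL521 it was 30.5 and 35.2 CPM against 37.6 to 47.0 CPM. The mean paired log2 difference between PGCC and parental cells was therefore 2.45 in replicates 4 and 5 and 0.19 in replicates 1, 2, 3 and 6. Without replicates 4 and 5 the log2 fold change of CDC25A was 0.21 (adjusted p = 0.062), and with the replicate block as well it was 0.21 (adjusted p = 0.032). Of all genes tested, 54.6% were called without replicates 4 and 5, and 64.3% with the block as well. The block alone called 56.2% and left CDC25A uncalled (0.87, adjusted p = 0.061).

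CDC25C split the replicates the other way. In parental cells it was at 3.65 and 4.83 CPM in replicates 4 and 5 and at 0.435 to 1.27 CPM in the other 4, a mean 5.51-fold higher in replicates 4 and 5. In PGCC it was at 15.4 and 14.6 CPM in replicates 4 and 5 and at 6.06 to 9.52 CPM in the other 4, a mean 2.05-fold higher. CDC25B was also higher in replicates 4 and 5, at 169 to 188 CPM against 129 to 153 CPM in parental cells and 211 to 238 CPM against 166 to 178 CPM in PGCC. PLK1 of parental cells stood at 48.8 and 60.0 CPM in replicates 4 and 5 and at 20.7 to 42.6 CPM in the others. MYBL2, CDC20 and PLK4 of replicates 4 and 5 lay on both sides of the others' mean in parental cells. Leaving out replicates 4 and 5 moved the rise of CDC25C in PGCC from 2.35 to 3.26 in log2 (adjusted p = 1.3e-06), and that of PLK1 from 2.04 to 2.30. What sets replicates 4 and 5 apart is not in the labels, and the difference between the replicate sets was not tested.

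**Figure D2:**
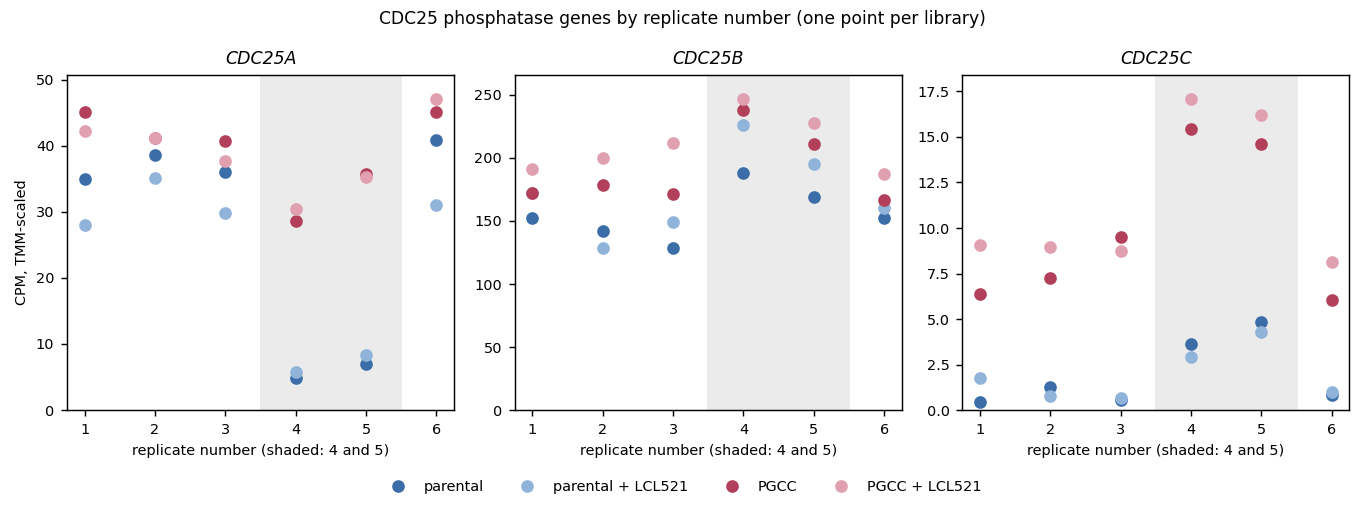
Levels of CDC25A, CDC25B and CDC25C in CPM (linear axes from 0) against replicate number, 1 point per library, colored by condition, with replicates 4 and 5 shaded. In parental cells CDC25A is at 4.81 and 6.93 CPM in replicates 4 and 5 and at 35.0 CPM or above elsewhere, while CDC25C is at 3.65 and 4.83 CPM there and at 1.27 CPM or below elsewhere.

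Of the Polo and Aurora kinases, PLK1 and AURKA rose by like amounts. PLK1 (ENSG00000166851; chromosome 16, 23688977 to 23701688, plus strand), which drives centrosome maturation and spindle assembly, had a lowest, median and highest level of 20.7, 36.9 and 60.0 CPM in parental cells and 129, 159 and 187 CPM in PGCC. AURKA (ENSG00000087586; chromosome 20, 54944445 to 54967393, minus strand), the kinase that activates PLK1, was at 28.9, 37.7 and 50.9 CPM and at 142, 157 and 191 CPM. Neither gene's ranges overlapped. The log2 fold change was 2.04 ± 0.21 (SE) for PLK1 (adjusted p = 4.0e-06) and 2.05 ± 0.13 (SE) for AURKA (adjusted p = 6.8e-08), or 4.13-fold and 4.15-fold.

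PLK4 (ENSG00000142731; chromosome 4, 128802016 to 128820350, plus strand), the kinase that limits how many centrioles form, was scarcer and rose less. It was at 3.71, 6.13 and 9.68 CPM in parental cells and at 16.1, 16.9 and 19.1 CPM in PGCC, with no overlap. The log2 fold change was 1.48 ± 0.21 (SE), or 2.80-fold (95% interval 2.05 to 3.81, adjusted p = 5.5e-05).

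CDC20 (ENSG00000117399; chromosome 1, 43824626 to 43828874, plus strand), the co-activator that starts anaphase, was at 49.9, 58.0 and 79.5 CPM in parental cells and at 229, 261 and 304 CPM in PGCC. The ranges were far apart, and the log2 fold change was 2.13 ± 0.12 (SE), the smallest error of the 8 genes that did not overlap (4.38-fold, adjusted p = 2.4e-08). Its paired difference was 2.14 ± 0.30 (SD, n = 6).

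MYBL2 (ENSG00000101057; chromosome 20, 42295754 to 42345136, plus strand), the MYB factor that binds MuvB from S phase on, had the largest rise of the 10 when all replicates were used. Without replicates 4 and 5 it rose by 3.18 in log2 and CDC25C by 3.26. MYBL2 went from 14.3, 27.8 and 31.8 CPM in parental cells to 193, 223 and 255 CPM in PGCC. The log2 fold change of 3.20 ± 0.20 (SE), or 9.21-fold (95% interval 6.80 to 12.5, adjusted p = 7.2e-08), stood at the 99.1 percentile of all genes tested. FOXM1 (ENSG00000111206; chromosome 12, 2966847 to 2986206, minus strand), which joins MuvB later in the cycle, was at 19.5, 23.8 and 38.7 CPM in parental cells and at 98.2, 113 and 125 CPM in PGCC. Its log2 fold change was 2.10 ± 0.15 (SE), or 4.30-fold (adjusted p = 1.5e-07). The interval of FOXM1, 3.45 to 5.35-fold, lies below that of MYBL2. FOXM1 overlaps RHNO1 and ITFG2 on the opposite strand, with 8008 and 3274 counts over all libraries against 29211 for FOXM1.

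For most of these genes PGCC libraries differed less among themselves than parental libraries did. The SD of log2 CPM over 6 libraries was larger in parental cells than in PGCC for 9 of 10 genes, CDC25B being the exception (0.19 against 0.21). For CDK1 it was 0.61 in parental cells and 0.19 in PGCC, for MYBL2 0.54 and 0.13, and for PLK4 0.54 and 0.088. With LCL521 it was again larger in parental cells for 9 of 10 genes, with CDC20 the exception. The share of all genes with a larger SD in parental cells was not computed. On the second principal component, parental libraries without LCL521 lay from -51.2 to 30.5 and those of PGCC from -21.5 to 13.8. The parental libraries held 450 to 1428 counts of CDK1, 246 to 546 of MYBL2 and 64 to 167 of PLK4, and the part of counting error in this spread was not tested. In parental cells of replicate 1, CDK1 was at 24.5 CPM, its lowest level, and PLK1, AURKA, FOXM1 and CDC25C were at their lowest there too.

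The order of the genes by level, in mean CPM per kilobase of gene length, differed between the populations. In parental cells CDC25B (43.3), CDC20 (33.9) and CDK1 (27.4) were highest, followed by AURKA (15.2), PLK1 (9.36), MYBL2 (9.21), FOXM1 (7.53), CDC25A (7.16), PLK4 (1.60) and CDC25C (0.91). Each of these overlapped the next in its range over the 6 libraries. In PGCC the order was CDC20 (147.8), CDK1 (134.9), MYBL2 (84.4), AURKA (63.0), CDC25B (52.8), PLK1 (38.5), FOXM1 (32.3), CDC25A (10.4), CDC25C (4.64) and PLK4 (4.47). MYBL2 was thus the sixth in parental cells and the third in PGCC, and CDC25B was the first and the fifth. In PGCC the ranges of CDK1 and MYBL2, of CDC25B and PLK1, of FOXM1 and CDC25A, and of CDC25A and CDC25C did not overlap.

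Ratios within families were compared as differences of log2 CPM in each library, with two-sided exact permutation tests over 6 against 6 libraries, in 4 ratios with and without LCL521. The p-values were adjusted over these 8 tests. The ratio of CDC25B to CDC25C was lower in PGCC in 6 of 6 pairs, with a log2 mean of 4.34 ± 0.41 (SD, n = 6) against 6.75 ± 1.18 in parental cells, a difference of -2.41 (exact p = 0.0022, the smallest these groups can give, adjusted p = 0.0087). With the replicate numbers as pairs, the exact test over sign changes cannot decide. All 6 pairs lay in 1 direction, which gives the smallest p that 6 pairs allow. That p was 0.125 after adjustment over the 8 tests. The ratio of CDC25A to CDC25C differed by -1.75 (exact p = 0.14, adjusted p = 0.19), and without replicates 4 and 5 by -2.95 (exact permutation test, adjusted p = 0.038). For CDC25A to CDC25B the difference was 0.66 (exact p = 0.42, adjusted p = 0.42) and turned to -0.068 without replicates 4 and 5. PLK4 to PLK1 differed by -0.57 (exact p = 0.054, adjusted p = 0.11), lower in 5 of 6 pairs, and by -0.89 without replicates 4 and 5 (exact permutation test, adjusted p = 0.038). Both values of 0.038 rest on the smallest exact p that 4 against 4 libraries can give.

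The same comparison was made between PGCC and parental cells that had both received LCL521. Again 9 of 10 genes were higher and none was lower, where 48.9% of 13818 genes tested were called and 25.0% were higher, and 8 of 10 did not overlap, where 14.4% of all genes had every PGCC library above every parental one. The median log2 fold change of the 10 genes was 2.20. MYBL2 rose by 3.27 ± 0.17 (SE) in log2, CDC25C by 2.61 ± 0.41, CDK1 by 2.53 ± 0.17, PLK1 by 2.27 ± 0.24, CDC20 by 2.25 ± 0.08, AURKA by 2.16 ± 0.13, FOXM1 by 2.10 ± 0.13 and PLK4 by 1.68 ± 0.15 (edgeR, highest adjusted p of these 0.00012). CDC25B, at 0.32 ± 0.13, was again near the threshold (adjusted p = 0.049), and its call was lost without any 1 of replicates 1, 2, 3, 5 and 6 (highest adjusted p 0.14), with RLE factors (adjusted p = 0.052) and without a filter on low counts (adjusted p = 0.088).

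CDC25A under LCL521 differed by 0.79 ± 0.35 (SE; adjusted p = 0.075). With the replicate block the log2 fold change was 1.01 (adjusted p = 0.013; 56.3% of all genes called), and without replicates 4 and 5 it was 0.47 (adjusted p = 0.0019; 52.5% of all genes called), so the call depends on how these libraries enter. Averaged over pairs, replicates 4 and 5 differed by 2.23 and the others by 0.44. The ratio of CDC25B to CDC25C was 5.41-fold lower in PGCC with LCL521 than in parental cells with LCL521, in 6 of 6 pairs. The exact permutation test gave p = 0.0022 (adjusted p = 0.0087). The paired exact test again could not decide, with its smallest possible p adjusted to 0.125. The ratios of CDC25A to CDC25C (-1.71, adjusted p = 0.12), CDC25A to CDC25B (0.73, adjusted p = 0.37) and PLK4 to PLK1 (-0.70, adjusted p = 0.11) did not pass these exact permutation tests.

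**Figure D3:**
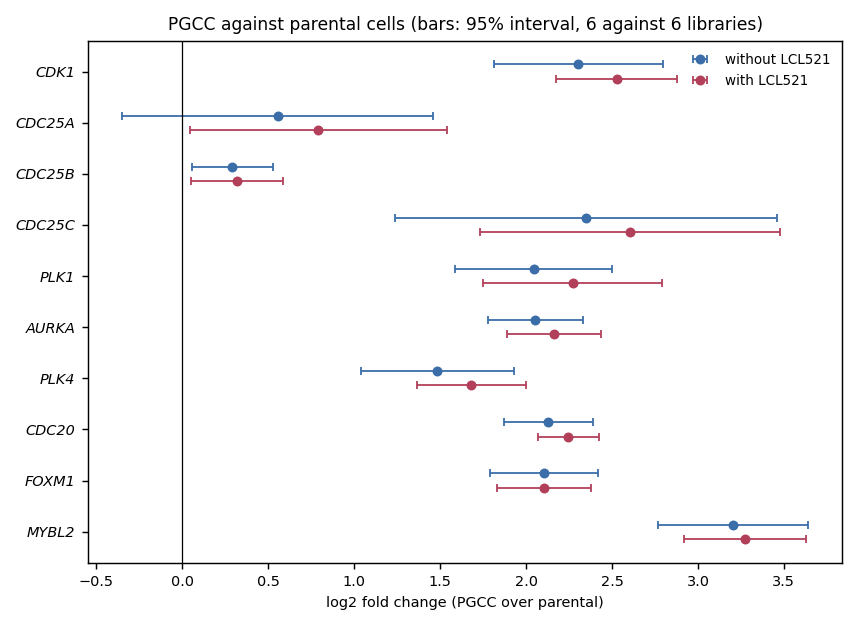
Log2 fold change of PGCC over parental cells for each gene without LCL521 (blue) and with it (red), as points with 95% intervals from 6 against 6 libraries. MYBL2 lies highest at 3.20 and 3.27, 7 other genes lie between 1.48 and 2.61, and CDC25A and CDC25B lie between 0.29 and 0.79.

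LCL521 was then compared with no LCL521 within each population. In parental cells 0 of 10 genes passed the threshold, as did 0.0% of 13277 genes tested (edgeR), and 0 of 10 had an unadjusted p under 0.05, as did 71 genes (0.535%) in all. DESeq2 called 0 genes too, with 83 at an unadjusted p under 0.05. Log2 fold changes ran from -0.22 for CDC25A to 0.15 for CDC25B. The intervals bound what this fit, which does not use the pairs, could have missed. The 95% interval was -0.41 to 0.09 for CDC20, -0.71 to 0.41 for CDK1 and -1.42 to 0.97 for CDC25A. By replicate number, the 6 paired log2 differences ran from -0.43 to 0.10 for CDC20 and -0.45 to 0.19 for CDK1. For CDC25A they ran from -0.40 to 0.25. For each of the 10 genes the libraries with and without LCL521 overlapped, whereas 0.0226% of all genes had every library with LCL521 above every one without it. The replicate block called none of the 10, and 0.866% of all genes.

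In PGCC, LCL521 changed 0 of 10 genes past the threshold, where 1 of 14151 genes tested (0.00707%) was called, and 0 of 10 had an unadjusted p under 0.05, as did 218 genes (1.54%) in all. DESeq2 called 6 of all genes and none of the 10. The log2 fold changes lay between -0.07 for CDC20 and 0.20 for CDC25C, and the intervals were narrower than in parental cells, at -0.18 to 0.11 for MYBL2, -0.15 to 0.15 for FOXM1 and -0.13 to 0.24 for CDK1. CDC25B was at 166, 175 and 238 CPM without LCL521 and at 187, 206 and 246 CPM with it, ranges that overlap, as they did for all 10 genes (0.0707% of all genes had every library with LCL521 above every one without it). CDC25B was higher with LCL521 in 6 of 6 pairs, by 0.16 in log2, and with the replicate block it passed the threshold (0.16 ± 0.03 SE, adjusted p = 0.014), as did 1.65% of all genes tested. PLK1 was also higher in 6 of 6 pairs, by 0.06, and did not pass with the block (adjusted p = 0.40).

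**Figure D4:**
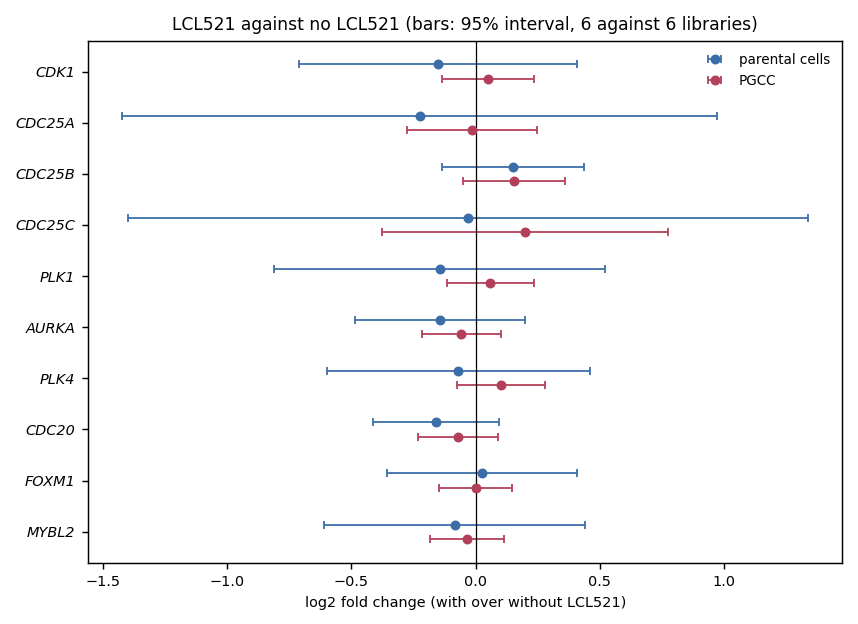
Log2 fold change with LCL521 over without it for each gene in parental cells (blue) and in PGCC (red), as points with 95% intervals from 6 against 6 libraries. Every interval includes 0, and those of parental cells are wider, reaching -1.42 for CDC25A.

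Whether LCL521 acted differently in PGCC and in parental cells was tested as an interaction over all 24 libraries. None of the 10 genes passed the threshold, as was so for 0.0% of 14555 genes tested in edgeR, where 60 genes (0.412%) had an unadjusted p under 0.05. DESeq2 called 0, with 54 at an unadjusted p under 0.05. The interaction in log2 ran from -0.02 for FOXM1 to 0.23 for CDC25C, whose 95% interval was -1.18 to 1.65. The interval was narrowest for CDC20, at -0.21 to 0.40. This fit does not use the pairs, so differences between replicates enter its error and these intervals. With the replicate block none of the 10 passed, nor did any of the 14555 genes, with 148 at an unadjusted p under 0.05 (edgeR). The block takes 1 shift per replicate for both populations. CDC25A of replicates 4 and 5 differed from the others by -2.68 in log2 in parental cells and by -0.42 in PGCC.

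The genes that work with these regulators were taken from 9 lists with 97 genes, also chosen with earlier results of these data known. Counts from them beside the shares of all genes are therefore a description. Of the 97 genes, 96 were tested and LIN37 had too few counts. In PGCC against parental cells, 59 were higher, 12 were lower and 25 were not called, where 23.1% of all genes tested were higher and 24.3% lower. With LCL521 in both populations the numbers were 61, 9 and 26, where 25.0% of all genes were higher and 23.9% lower. With library totals in place of TMM, 65 were higher and 5 lower without LCL521, so the falls described next depend in part on the scaling. Of the 16 late cell cycle targets of FOXM1 and MYBL2, all 16 were higher, with a median log2 fold change of 2.06. The largest was that of KIF20A, a kinesin of the central spindle (3.33 ± 0.35 SE), and the smallest that of KPNA2, an importin (0.99 ± 0.14).

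Of the 9 partners of CDK1, 6 were higher and 1 was lower, where 23.1% of all genes were higher and 24.3% lower. CCNB2, a B-type cyclin, rose by 2.19 ± 0.27 (SE) in log2, and CCNB1 and CCNA2 rose by 1.66 and 1.92. The kinase that activates CDK1, CDK7 with CCNH and MNAT1, was unlike the cyclins: CDK7 was at 0.17 and CCNH at 0.01, neither called, and MNAT1 was at -0.28 (adjusted p = 0.033), a call that was lost with the replicate block, with library totals and without replicates 4 and 5, and was not made with LCL521. Of the 7 inhibitory and checkpoint kinases, PKMYT1, which holds CDK1 inactive, rose by 2.42 ± 0.21, and CHEK1 and CHEK2 by 1.17 and 1.29. WEE1, the other kinase that inhibits CDK1, was at 0.23 ± 0.21 (adjusted p = 0.40), and ATM and ATR were not called. With the replicate block, and without replicates 4 and 5, 1 of these 7 genes was lower, where 28.3% and 26.9% of all genes were lower.

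Of the 9 genes of the Greatwall pathway, which holds the phosphatase PP2A-B55 back during mitosis, 1 was higher and 3 were lower, near the 47.4% called among all genes. With library totals 4 were higher and 1 was lower. MASTL, the Greatwall kinase, rose by 2.41 ± 0.16, and with TMM its substrates ENSA and ARPP19 fell by 0.39 and 0.21 in log2. Of the 10 activators and relatives of the Aurora and Polo kinases, 9 were higher, where 23.1% of all genes were. These 9 were led by AURKB at 2.72 ± 0.25, the Aurora kinase of the chromosomal passenger complex, and PLK3 was the one not called (0.11). Of the 7 centriole partners of PLK4, 6 were higher, beside the same 23.1% of all genes. They were led by STIL at 1.90 ± 0.17, and CEP63 was not called (0.01).

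The 21 genes around CDC20 split, with 10 higher, 6 lower and 5 not called, against 23.1% higher and 24.3% lower among all genes. With library totals 12 were higher and 2 lower. Those that rose most were the spindle checkpoint gene BUB1B (2.27 ± 0.14), the ubiquitin carrier UBE2C (1.95), TTK (1.93) and MAD2L1 (1.85). The 6 that fell with TMM are subunits of the anaphase-promoting complex, by 0.25 to 0.79 in log2, with ANAPC16 the most (-0.79 ± 0.11), while CDC23, ANAPC5 and ANAPC7 rose by 0.39, 0.42 and 0.25. FZR1, which takes the place of CDC20 after anaphase, was at -0.06 (adjusted p = 0.60). In the MuvB list of 13 genes, 5 of the 12 tested were higher and 2 were lower, where 47.4% of all genes were called. The number lower was 3 with the replicate block and 4 without replicates 4 and 5. MYBL1, a relative of MYBL2, rose by 2.35 ± 0.32, LIN54 and LIN9 rose by 0.90 and 0.66, and E2F5 and E2F4 fell by 1.14 and 0.44. Of the 5 genes in the G2 arrest list, 3 were higher and 2 were not called, where 23.1% of all genes were higher. The 3 were CDKN1A, an inhibitor of cyclin-dependent kinases (3.74 ± 0.37), SFN (1.34) and GADD45A (0.78). MDM2, listed with them, was at -0.22 (adjusted p = 0.058). With the replicate block 4 genes of this list were higher and 1 was lower.

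None of the 96 genes passed the threshold for LCL521 in either population, where 0.0% of all genes passed in parental cells and 0.00707% in PGCC. With the replicate block SFN was lower with LCL521 in parental cells, 1 of 96 genes, where 0.866% of all genes were called. In PGCC CENPF was higher and MYBL1 and PLK2 were lower with the block, where 1.65% of all genes were called.

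**Figure D5:**
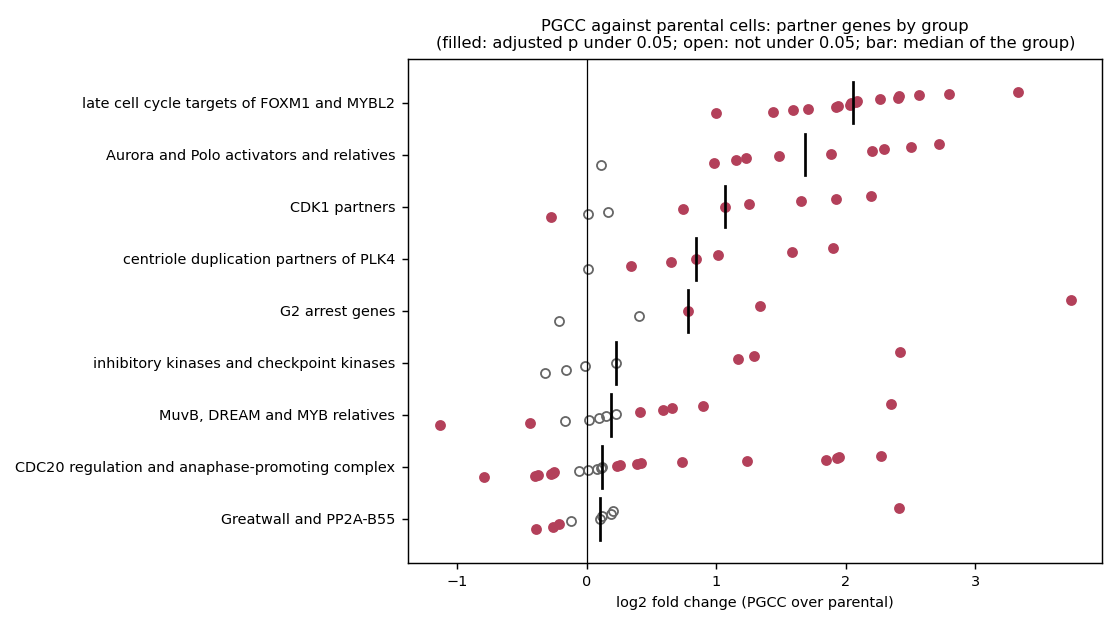
Log2 fold change of PGCC over parental cells for the 96 tested partner genes in 9 groups, 1 point per gene, filled where adjusted p is under 0.05 and open where it is not, with a bar at each group's median. All 16 late cell cycle targets are filled and to the right of 0 with a median of 2.06, and MASTL at 2.41 is the only gene of the Greatwall group above 1.

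The genes whose pattern over the 24 libraries was most like each of the 10 were named by the root mean square difference of centered log2 CPM, over 10647 candidates with a mean log2 CPM of 2 or more. For PLK1 they were TPX2 and UBE2C (0.16 for both), for AURKA RACGAP1 (0.15) and MUC13 (0.17), and for FOXM1 NCAPG2 (0.13) and ARHGAP11A (0.15). CDC20 was nearest to HJURP (0.14) and GINS4 (0.18), CDK1 to KIFC1 and PBK (0.18 for both), PLK4 to ZWINT and MLF1IP (0.21 for both), and MYBL2 to TK1 (0.17) and ARHGDIB (0.22). The CDC25 genes had separate neighbors: GMNN (0.22) and LRRC8C (0.24) for CDC25A, MED25 and DDR1 (0.12 for both) for CDC25B, and CIT (0.40) and NDC80 (0.42) for CDC25C. Among the 10 genes themselves, AURKA and FOXM1 were nearest (0.16) and CDC25A and CDC25C farthest apart (1.83). The libraries share the division into PGCC and parental cells, so this likeness is a description.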

How the data were processed

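The authors deposited whole-number read counts per gene for 24 libraries, not normalized. Per the labels and methods, STAR aligned the reads to hg19 and HTSeq counted them; the annotation release and the use of strand are not given in the sources used here. No per-sample column was left out. Coordinates of genes are those of the count table (hg19), whereas promoter windows come from RefSeq on GRCh38.p14, and the builds were not mixed.

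Genes were filtered with filterByExpr (minimum count 10, minimum total 15), scaled by TMM and tested with edgeR 4.0.16 (quasi-likelihood, R 4.3.3, limma 3.58.1) on the 12 libraries of each comparison, or all 24 for the interaction, with Benjamini-Hochberg adjustment over all genes tested and a threshold of 0.05. All 10 genes passed the filter in each comparison. Levels are TMM-scaled CPM, and log2 CPM for likeness and ratios carries a prior count of 2. An SE is the size of the log2 fold change divided by the square root of F. The procedure was tested on simulated data in which any shift of a replicate was shared by both populations. A split of replicates that differs between populations, as for CDC25A, was not simulated. P-values measure the spread between libraries of 1 cell line. No libraries of a condition were duplicates (chi-square per degree of freedom 5.05 to 120.1 over 60 pairs).

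Groups and replicate numbers come from the labels. Deviations of same-numbered libraries from their condition means were correlated above 0.1 in every pair (0.171 to 0.813). In both LCL521 comparisons the library of the same number was the closest for 6 of 6 libraries. Between the populations it was the closest for 5 of 6 PGCC libraries without LCL521 and for 3 of 6 with it. The numbers were taken to pair the libraries, and a block for the replicate number was added to each comparison as an alternative. Other alternatives were DESeq2 1.42.0, RLE factors, library totals, no filter beyond 1 count, all 24 libraries in one fit, each replicate left out, and replicates 4 and 5 left out with and without the block.

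Genes named were the 10 themselves; in each partner list the largest rise, the largest fall and genes past the threshold for LCL521; the 2 nearest genes by pattern; and the markers. Values of some genes that this rule takes in are left out here. Further genes of the lists were named after their values were seen. CKS1B and RBL1 have 2 rows each, and the row with more counts was used. The 10 genes and the lists were chosen with earlier results of these data known.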

Additional observations from a re-analysis of the deposited data

Results flagged for a closer look

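Of 40 groups of 6 libraries (10 genes in 4 conditions), 1 held a library far from the others by Dixon's test, which flags about 1 group in 20 by chance. FOXM1 in parental cells with LCL521 was at 37.8 CPM in replicate 5 and at 22.0 to 26.4 CPM in the other 5 libraries. Parental cells of replicate 5 without LCL521 held the highest FOXM1 level of that condition too, at 38.7 CPM.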

How the results depend on the processing

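In PGCC against parental cells, with or without LCL521, every alternative gave 8 to 10 of the 10 genes higher, and the call moved for CDC25A and CDC25B only. The share of all genes called ran from 25.8% without a filter on low counts to 64.3% without replicates 4 and 5 and with the block. With LCL521 it ran from 27.1% to 57.5% under the same 2 settings. Leaving out 1 replicate gave 8 to 9 genes in both comparisons, where 39.8% to 45.9% and 41.5% to 45.8% of all genes were called. Without replicates 4 and 5 the counts were 9 and, with LCL521, 10, where 54.6% and 52.5% of all genes were called. Library totals in place of TMM moved the median of all genes from -0.03 to 0.07 in log2 and the calls over all genes from 3186 higher and 3355 lower to 3820 and 2521, and 9 of the 10 genes were called; among the 96 partner genes 65 were then higher and 5 lower.

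With the replicate block, 1 of the 10 genes, CDC25B, passed for LCL521 in PGCC (0.16, adjusted p = 0.014), and also without replicates 4 and 5 (1 gene, 0.19). Over all genes the block gave 115 calls for LCL521 in parental cells in place of 0, and 234 in PGCC in place of 1. It raised CDC25A to a call under LCL521 (1.01) and changed no other call of the 10 genes. Exact sign changes of the paired differences, the block form of the ratio tests, gave an adjusted p of 0.12 for CDC25B to CDC25C without LCL521 (-2.41) and with it (-2.43), where 6 pairs limit how small p can be.

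Without replicates 4 and 5 the ratio of CDC25A to CDC25B turned to -0.068 (exact permutation test, adjusted p = 0.52), and that of CDC25A to CDC25C passed at -2.95 and, with LCL521, -2.58. PLK4 to PLK1 passed at -0.89 and -1.07. These passing ratios are all at the smallest exact p that 4 against 4 libraries can give. Leaving out 1 replicate, PLK4 to PLK1 without LCL521 ranged from -0.77 to -0.46, passing without replicate 4 only.

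Values of LCL521 near 0 changed sign under some alternatives, none past the threshold. In parental cells CDC25C was at 0.045 with the block, at 0.44 without replicates 4 and 5 and at 0.45 with both, against -0.03. Leaving out 1 replicate gave -0.22 to 0.093 for CDC25C, -0.18 to 0.052 for PLK4 and -0.022 to 0.096 for FOXM1. In PGCC, FOXM1 was at -0.0010 with DESeq2, -0.00078 with RLE factors and -0.0019 in one fit of all 24, against 0.00094, and at -0.022 to 0.021 with 1 replicate left out, where CDC25A ranged from -0.029 to 0.0095. The interaction of CDC25B was -0.010 with library totals, that of CDC25C -0.18 without replicates 4 and 5 with or without the block, and that of FOXM1 0.013 and 0.011. With 1 replicate left out the interaction ranged from -0.0020 to 0.16 for CDC20, -0.053 to 0.064 for CDC25B, -0.10 to 0.016 for FOXM1 and -0.046 to 0.096 for MYBL2. The cause of these changes was not tested. Depth limits CDC25C most, with 8 to 83 counts per parental library.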
